A study of Mus musculus with 36 samples.

Results

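Genes whose products set how long messenger RNAs last were followed through every library of a glucocorticoid experiment in mouse embryonic fibroblasts (MEFs): Zfp36, Zfp36l1, Zfp36l2, Zc3h12a, Elavl1 and Khsrp. They were chosen by name, as the factors of AU-rich element decay and of mRNA cleavage listed for this work, and are 6 of the 55487 genes in the count table. The choice was made with earlier results of these data known. The study asked how far the glucocorticoid receptor (GR, encoded by Nr3c1) can regulate genes when the contacts that hold 2 receptors together are mutated. RNA was sequenced from primary MEFs of 5 genotypes after 5 h with 1 µM dexamethasone (Dex, a synthetic glucocorticoid) or vehicle. GRD/D carries the D allele, an alanine-to-threonine substitution in the DNA-binding domain, in both copies of the gene. GRL/L carries the L allele, an isoleucine-to-alanine substitution in the ligand-binding domain, GRD+L/D+L carries both substitutions, and GRko/ko lacks the receptor. GRwt/wt, GRD/D, GRD+L/D+L and GRko/ko were sequenced in run 1, and GRL/L in run 2 beside further GRwt/wt libraries, so that each mutant has wild-type libraries of its own run. Each of the 12 groups held 3 libraries from MEF cultures of different mice, 36 in all. Since 3 cultures per genotype were described, vehicle and Dex libraries of a genotype may come from the same cultures. All 36 samples are labelled FVB/NJ, but by the study's methods the receptor-null line was kept on another strain. For GRko/ko, the strain and the missing receptor cannot be told apart.

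Cells remove many short-lived mRNAs, such as those of cytokines and growth regulators, through AU-rich elements (AREs) in the 3′ untranslated region (3′ UTR). ZFP36 (tristetraprolin, TTP) and its relatives ZFP36L1 and ZFP36L2 bind these elements through paired zinc fingers and bring in the CCR4-NOT complex, which shortens the poly(A) tail. KHSRP (KSRP) also promotes decay of ARE-bearing mRNAs, whereas ELAVL1 (HuR) binds the same kind of element and stabilises the transcript. ZC3H12A (Regnase-1) is an endonuclease that cuts stem-loops in the 3′ UTRs of inflammatory mRNAs. Glucocorticoids are known to induce Zfp36, and TTP activity is restrained by the p38 kinase pathway, which the phosphatase DUSP1 switches off.

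The element that ties these factors to their targets was read from the GENCODE transcripts, since 4 of the 6 genes carry it themselves. The heptamer TATTTAT (in RNA, U for each T) was searched on the transcript strand, with overlapping copies counted. The 3′ UTRs of Zfp36, Zfp36l1 and Zfp36l2 hold 3 copies each and that of Elavl1 holds 8, while those of Zc3h12a and Khsrp hold 0. Of the 13539 tested genes with an annotated 3′ UTR, 28.5% hold at least 1 copy and 3.62% hold at least 3. The 3′ UTRs searched were 774 bases long for Zfp36, 1835 for Zfp36l1, 1822 for Zfp36l2 and 4218 for Elavl1, against a median of 995. A longer one has more room for copies, and the shares above are not matched for length. The window around 1 copy is shown for the members and, for comparison, for 3 target mRNAs described further on. Capitals mark the heptamers, and each run is 30 bases read 5′ to 3′ on the gene's strand.
Zfp36: agtgggcccttTATTTATgacgactttatt
Zfp36l1: ttatcaaaacgTATTTATtgccaaactatg
Zfp36l2: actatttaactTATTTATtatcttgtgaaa
Elavl1: gtcatgaaaatTATTTATTTATTTATTTAT
Il6: tttatgattgaTATTTATtatttttatgaa
Ptgs2: tctactgaccaTATTTATTTATTTATgtga
Il11: aaaccagatctTATTTATTTATTTATtttg
In mm10 these windows lie at chr7:28376965-28376994 (minus strand), chr12:80108421-80108450 (minus), chr17:84184913-84184942 (minus), chr8:4285787-4285816 (minus), chr5:30019728-30019757 (plus), chr1:150105786-150105815 (plus) and chr7:4773501-4773530 (minus). A match of these letters is a description of the sequence and not evidence of binding.

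All 6 members are protein-coding genes on the minus strand of mm10. Zfp36 (ENSMUSG00000044786) lies at chr7:28376784-28380253, Zfp36l1 (ENSMUSG00000021127) at chr12:80107754-80113013 and Zfp36l2 (ENSMUSG00000045817) at chr17:84183931-84187947. Zc3h12a (ENSMUSG00000042677) lies at chr4:125118423-125127840, Elavl1 (ENSMUSG00000040028) at chr8:4285382-4325413 and Khsrp (ENSMUSG00000007670) at chr17:57021051-57031522. Genes on the opposite strand share 125 exonic bases with Zfp36, 105 with Zfp36l2, 204 with Elavl1 and 63 with Khsrp. For Zfp36l1 the overlap is 1672 of its 2990 exonic bases, with a long noncoding RNA. Whether the counting used strand is not given in the sources used here, so reads of these partners cannot be told apart from those of the members. Over all 36 libraries together, the partners of Zfp36, Zfp36l2, Elavl1 and Khsrp had 1204, 117, 3306 and 7 counts of their own. The partner of Zfp36l1 was not in the count table.

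The RefSeq promoter table (GRCm38.p6, 300 bases around each start) matched 5 of the 6 members, all but Zfp36l2. The promoters of Zfp36 and Zfp36l1 are shown because with Dex Zfp36 rose and Zfp36l1 fell in GRL/L and, less steadily, in GRD/D. In wild-type cells only Zfp36 was called, and in GRD+L/D+L only Zfp36l1. The letters of the receptor's half-site, AGAACA or its reverse complement TGTTCT, occur in 0 of the 5 promoters, against 19.0% of 27025 promoters in the table. The full palindrome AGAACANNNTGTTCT occurs in 1 of the 27025 and in 0 of the 5. TATAAA (or TTTATA) is found in the promoter of Zfp36l1, where it is in capitals, in none of the other 4, and in 14.2% of the table. The Zfp36 window is chr7:28379179-28379478 and the Zfp36l1 window chr12:80112964-80113263, both minus strand and read 5′ to 3′.
Zfp36: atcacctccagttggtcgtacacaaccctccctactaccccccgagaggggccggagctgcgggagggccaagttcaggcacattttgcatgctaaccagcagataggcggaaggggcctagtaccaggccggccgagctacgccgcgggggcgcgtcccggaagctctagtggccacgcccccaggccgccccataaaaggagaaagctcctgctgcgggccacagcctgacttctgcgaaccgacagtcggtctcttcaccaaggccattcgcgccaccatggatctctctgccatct
Zfp36l1: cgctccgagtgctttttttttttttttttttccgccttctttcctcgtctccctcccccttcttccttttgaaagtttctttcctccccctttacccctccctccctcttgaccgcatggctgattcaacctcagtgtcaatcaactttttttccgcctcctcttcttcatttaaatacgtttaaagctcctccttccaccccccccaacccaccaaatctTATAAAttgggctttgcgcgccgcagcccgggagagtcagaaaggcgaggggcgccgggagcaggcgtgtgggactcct

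Library totals ranged from 15280166 to 19102035 counts in run 1 and from 21532686 to 28662608 in run 2. The members were counted 153 to 431 times per library for Zc3h12a, the lowest, and 2716 to 5781 times for Zfp36l2, the highest, and all 6 passed the filter on low counts that left 15489 genes. Nr3c1 stood at 15.9 to 20.4 CPM (read counts scaled to a common library size) in the 6 GRko/ko libraries and at 47.8 to 104.6 in the other 30. The 10 fibroblast markers summed to 20002 to 32431 CPM, and none was at 0 in a group. The 10 macrophage markers differed by genotype: their sum was 31 to 41 CPM in GRD+L/D+L, 197 to 349 in run 1 GRwt/wt, 461 to 517 in run 2 GRwt/wt, 715 to 859 in GRD/D, 740 to 1046 in GRL/L and 2805 to 3292 in GRko/ko. In bulk RNA, fewer cells of a type and less RNA per cell cannot be told apart. The other marker sums were small, at 4.88 to 19.3 CPM for endothelial, 0.782 to 28.6 for epithelial and 0 to 6.75 for muscle genes, and cartilage markers stood at 180 to 524 in GRko/ko and 18.3 to 139 elsewhere. In 9 of the 36 libraries all 6 members lay on the same side of their group mean. In replicate 2 of vehicle GRD/D all 6 were below it, by 0.22 log2 on average, in replicate 3 all 6 were above it, by 0.21, and in replicate 6 of vehicle GRwt/wt of run 2 all 6 were above it, by 0.17. In the same group, replicates 4 and 5 had all 6 below the mean, by 0.08 and 0.10. All 6 were also below it in Dex replicate 2 of GRL/L, by 0.12, and of GRD+L/D+L, by 0.07, and above it in Dex replicates 1 and 3 of GRL/L, by 0.09 and 0.03. The deviations of the first 3 of these libraries over all genes had Spearman correlations with GC content of -0.33, 0.14 and 0.22. For replicates 4 and 5 of vehicle GRwt/wt they were -0.13 and -0.14. In Dex replicate 2 of GRL/L and of GRD+L/D+L they were -0.12 and -0.03, and in Dex replicates 1 and 3 of GRL/L 0.15 and -0.04. Libraries whose members lay on both sides reached -0.28 (vehicle GRL/L replicate 3) and 0.26 (vehicle GRD/D replicate 1). These values describe the libraries only.

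Zfp36 rose with Dex in wild-type cells of both runs, by a like factor from different starting levels. In run 1, vehicle GRwt/wt libraries had 44.7, 44.5 and 50.3 CPM and Dex libraries 67.0, 71.6 and 70.2. In run 2 the vehicle values were 25.6, 25.3 and 30.0 CPM and the Dex values 45.6, 41.4 and 39.2. The Dex libraries lay above the vehicle libraries without overlap in both runs. The fold change was 1.50 in run 1 (log2 0.58 ± 0.08 SE, adjusted p = 1.23e-06, edgeR quasi-likelihood test) and 1.56 in run 2 (log2 0.64 ± 0.08, adjusted p = 6.81e-08), and the runs differed by 0.06 ± 0.12 log2 (adjusted p = 0.852).

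Zfp36 also rose with Dex in GRL/L, and at the edge of the threshold in GRD/D. GRL/L cells had 28.7, 28.7 and 26.9 CPM under vehicle and 36.7, 32.5 and 34.7 under Dex, a rise of 1.23-fold (log2 0.30 ± 0.08, adjusted p = 0.00629) in which the groups did not overlap. GRD/D cells had 45.9, 38.3 and 51.9 CPM under vehicle and 53.4, 51.8 and 56.6 under Dex, where the highest vehicle library overlapped the Dex range. Their change of 0.25 ± 0.08 log2 was just past the threshold (adjusted p = 0.0462). It was kept without vehicle replicate 3 and lost without any of the other 5 GRD/D libraries, with log2 0.14 and an adjusted p of 0.349 without vehicle replicate 2. It was also lost with the study's additive formula (adjusted p = 0.0520) and with a correction for GC content (log2 0.20, adjusted p = 0.123).

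In the double mutant and the null cells no change of Zfp36 was detected. GRD+L/D+L libraries stood at 53.2, 51.6 and 59.4 CPM under vehicle and 55.7, 52.5 and 62.4 under Dex (log2 0.05 ± 0.08, adjusted p = 0.881). GRko/ko libraries stood at 54.8, 56.5 and 54.0 under vehicle and 59.1, 54.5 and 50.4 under Dex (log2 -0.01 ± 0.08, adjusted p = 0.998). Against the wild type of run 1, whose libraries all run 1 differences share, the response differed by -0.53 ± 0.12 log2 in GRD+L/D+L (adjusted p = 0.00429) and by -0.59 ± 0.12 in GRko/ko (adjusted p = 0.000444). The difference of -0.33 ± 0.12 in GRD/D (adjusted p = 0.149) and of -0.34 ± 0.12 in GRL/L against run 2 (adjusted p = 0.158) did not pass. The GRD/D difference did pass without filtering, with the study's additive formula and without GRD/D vehicle replicate 2 (adjusted p = 0.0262, 0.0216 and 0.0159), and the GRL/L difference passed without filtering (0.0351). The unfiltered setting also called genes for Dex in GRko/ko, where the main fit called none.

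The order of Zfp36 levels in run 1 put Dex-treated wild type first, at 69.6 ± 2.33 CPM (SD, n = 3), apart from every other group. Behind it, 5 groups from Dex-treated GRD+L/D+L (56.8 ± 5.02) to Dex-treated GRD/D (53.9 ± 2.41) overlapped neighbour by neighbour, and vehicle GRwt/wt (46.5 ± 3.33) and vehicle GRD/D (45.4 ± 6.81) came last. In run 2 the order was Dex-treated GRwt/wt (42.1 ± 3.25), Dex-treated GRL/L (34.6 ± 2.12), then both vehicle groups, which overlapped at 28.1 ± 1.05 and 27.0 ± 2.65.

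**Figure D1:**
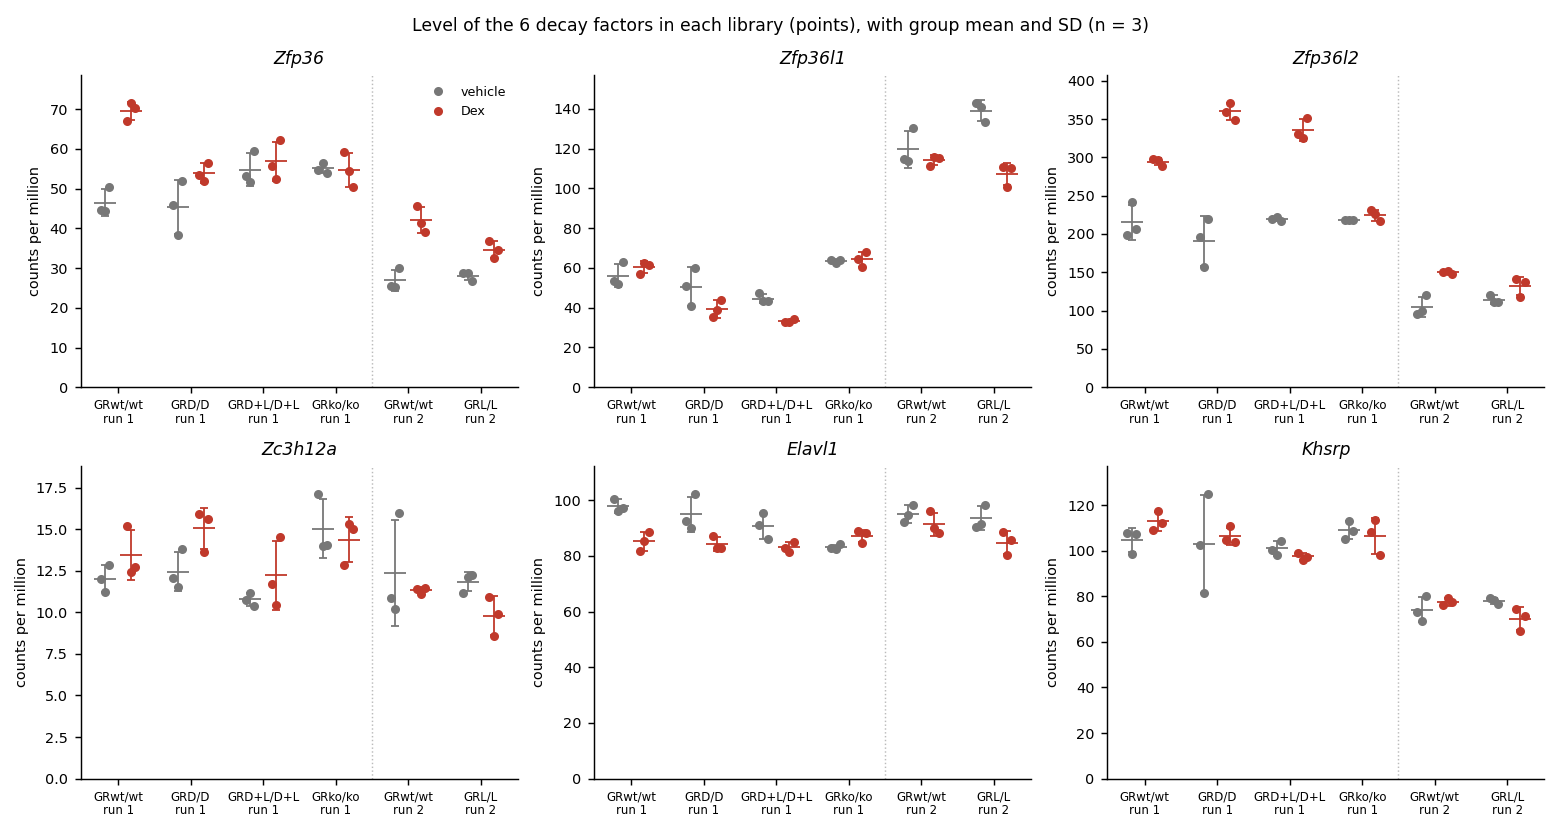
CPM of the 6 genes in each library (points) for vehicle (grey) and Dex (red), with the group mean and SD of 3 libraries, and run 1 left of the dotted line. Zfp36 reached 67.0 to 71.6 in Dex-treated wild-type cells of run 1 and stayed at 62.4 or below in the other libraries, while Zfp36l2 was highest, at 324.7 to 370.9, in Dex-treated GRD/D and GRD+L/D+L.

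Zfp36l2 rose with Dex in wild-type cells and in both mutants that carry the D allele. Wild-type libraries of run 1 had 199.0, 241.5 and 206.1 CPM under vehicle and 297.6, 296.7 and 288.8 under Dex (1.37-fold, log2 0.45 ± 0.08, adjusted p = 5.46e-05). In run 2 they had 95.8, 99.8 and 120.0 under vehicle and 149.8, 152.3 and 148.0 under Dex (1.43-fold, log2 0.51 ± 0.08, adjusted p = 3.18e-06). No Dex library overlapped a vehicle library in either run.

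In GRD/D the rise was larger. These cells had 196.4, 156.5 and 220.2 CPM under vehicle and 359.7, 370.9 and 349.2 under Dex, a 1.88-fold rise (log2 0.91 ± 0.08, adjusted p = 5.26e-11) that ranked 60th of the 15489 genes by p-value. The response exceeded that of run 1 wild type by 0.46 ± 0.11 log2 (adjusted p = 0.0104). That difference held in 11 of 12 refits that left out 1 library and was lost without vehicle GRwt/wt replicate 2 (log2 0.38, adjusted p = 0.0617), the highest of its group.

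GRD+L/D+L cells had 218.9, 222.2 and 217.3 CPM under vehicle and 330.9, 324.7 and 351.1 under Dex. The rise was 1.53-fold (log2 0.61 ± 0.08, adjusted p = 7.24e-07), and it differed from wild type by 0.16 ± 0.11 (adjusted p = 0.646) and from GRD/D by -0.30 ± 0.11 (adjusted p = 0.320, and 0.0444 without filtering). Dex left Zfp36l2 at 230.9, 226.3 and 216.8 CPM in GRko/ko, beside 218.0, 218.0 and 218.8 with vehicle (log2 0.04 ± 0.08, adjusted p = 0.987). Here the response differed from that of wild type by -0.41 ± 0.11 log2 (adjusted p = 0.0159), a call that was lost without vehicle GRwt/wt replicate 1 (adjusted p = 0.0697).

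GRL/L cells showed the smallest Zfp36l2 change of the cells with a receptor. They had 120.7, 110.7 and 110.7 CPM under vehicle and 141.3, 118.1 and 137.0 under Dex, with overlap of 1 Dex library and the highest vehicle library. The change of 0.21 ± 0.08 log2 missed the threshold (adjusted p = 0.0575). It was called with RLE scaling, without filtering (0.00245), with the GC correction (0.0251), without Dex replicate 2, in which all 6 members were low (log2 0.29, 0.0160), and without vehicle replicate 1 (0.0482), and in none of the other 10 refits. Its difference from run 2 wild type was -0.30 ± 0.11 (adjusted p = 0.221), which passed without filtering (0.0125) and without vehicle GRwt/wt replicate 6 (0.0491).

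Zfp36l1 did not pass the test for Dex in wild-type cells of either run, and fell in all 3 mutants with a receptor. Run 1 wild-type libraries had 53.2, 52.1 and 62.7 CPM under vehicle and 57.1, 62.6 and 61.6 under Dex (log2 0.11 ± 0.09, adjusted p = 0.493). Run 2 wild-type libraries had 114.8, 113.8 and 130.2 under vehicle and 111.2, 115.9 and 115.3 under Dex (log2 -0.07 ± 0.08, adjusted p = 0.539). The vehicle and Dex libraries overlapped in both runs.

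In GRD+L/D+L, vehicle libraries had 47.2, 43.4 and 43.1 CPM and Dex libraries 32.8, 33.0 and 34.1, so that Zfp36l1 fell by 0.42 log2 (SE 0.09, adjusted p = 0.00306) without overlap. In GRL/L, vehicle libraries had 142.9, 141.0 and 133.2 and Dex libraries 110.6, 100.8 and 110.2, again without overlap (log2 -0.37 ± 0.08, adjusted p = 0.000278). Both falls were called under every other setting and with any 1 of the 6 libraries left out. GRD/D had 50.7, 40.8 and 60.1 under vehicle and 35.5, 38.6 and 44.1 under Dex, where the groups overlapped (log2 -0.36 ± 0.09, adjusted p = 0.00603). The GRD/D fall was lost without Dex replicate 1 (adjusted p = 0.0542) or vehicle replicate 3 (log2 -0.21, adjusted p = 0.114).

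The Zfp36l1 response differed from that of run 1 wild type by -0.53 ± 0.13 log2 in GRD+L/D+L (adjusted p = 0.00993), a call kept in each of 12 refits without 1 library. In GRD/D the difference was -0.47 ± 0.13 (adjusted p = 0.0250), kept in 5 of the 12 refits. It was lost without GRD/D Dex replicate 1 or 2, GRD/D vehicle replicate 3, GRwt/wt Dex replicate 2 or 3, or GRwt/wt vehicle replicate 1 or 2, with adjusted p-values of 0.0601 to 0.129. The GRL/L difference from run 2 wild type was -0.31 ± 0.11 (adjusted p = 0.172), which passed without filtering (0.0167). GRko/ko cells held Zfp36l1 at 64.0, 62.2 and 64.0 CPM under vehicle and 64.6, 60.4 and 68.0 under Dex (log2 0.02 ± 0.08, adjusted p = 0.996).

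**Figure D2:**
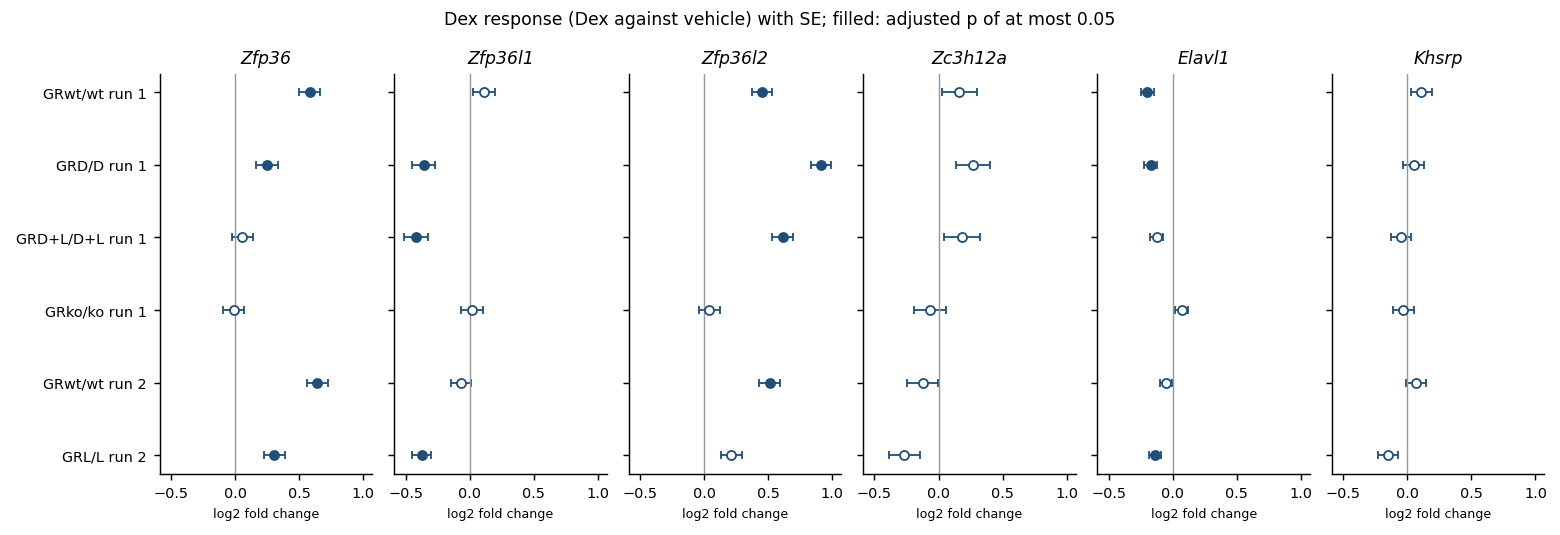
Dex response (log2 fold change of Dex against vehicle, with its SE) of the 6 genes in each genotype and run. Filled points passed an adjusted p of 0.05: Zfp36 is filled in both wild-type rows, GRD/D and GRL/L, Zfp36l1 in the 3 mutants with a receptor at -0.36 to -0.42, Zfp36l2 in all but GRko/ko and GRL/L, and no point is filled in GRko/ko.

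Because the 3 relatives bind like elements, their mRNAs were also summed per length, as CPM per kilobase of exon. In run 1, the sum went from 93.2 ± 5.83 (SD, n = 3) to 123.7 ± 1.69 in GRwt/wt, from 84.1 ± 14.3 to 130.7 ± 2.00 in GRD/D and from 92.9 ± 0.46 to 122.6 ± 5.58 in GRD+L/D+L, with no overlap of vehicle and Dex libraries. In GRko/ko it was 98.9 ± 0.06 and 100.9 ± 2.80. In run 2 it went from 77.6 ± 7.47 to 92.8 ± 1.02 in GRwt/wt, and in GRL/L it was 86.9 ± 3.30 with vehicle and 83.3 ± 5.91 with Dex, which overlapped. No test was run on these sums, and mRNA levels do not give the amount of the proteins.

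The Zfp36l2 share of the family sum was higher with Dex, without overlap of the libraries, in GRD/D, GRD+L/D+L and both genotypes of run 2, while its ranges overlapped in run 1 wild type and GRko/ko. In vehicle GRD/D libraries Zfp36l2 gave 64.0 to 64.8% of the sum and with Dex 76.1 to 79.0%, and in GRD+L/D+L it went from 66.1 to 68.2% to 77.2 to 77.8%. In run 2 it went from 37.2 to 39.4% to 45.7 to 46.0% in GRwt/wt and from 36.1 to 37.9% to 43.7 to 45.7% in GRL/L. The ranges in run 1 wild type were 62.2 to 69.4% and 66.7 to 68.7%, and in GRko/ko 62.4 to 62.6% and 62.2 to 64.1%. Zfp36l1 gave 19.8 to 20.6% of the sum in vehicle GRD/D and 9.18 to 11.3% with Dex. In run 2 the Zfp36l1 share went from 50.5 to 52.7% to 40.1 to 42.0% in GRwt/wt and from 53.0 to 54.3% to 42.2 to 44.1% in GRL/L. In run 1 wild type it was 17.7 to 22.3% under vehicle and 15.6 to 16.8% under Dex. A change common to the 3 relatives in a library, as in vehicle GRD/D replicates 2 and 3, does not move these shares. The runs differed: Zfp36l1 gave 50.5 to 54.3% of the sum in vehicle libraries of run 2 and 15.5 to 22.3% in those of run 1.

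**Figure D3:**
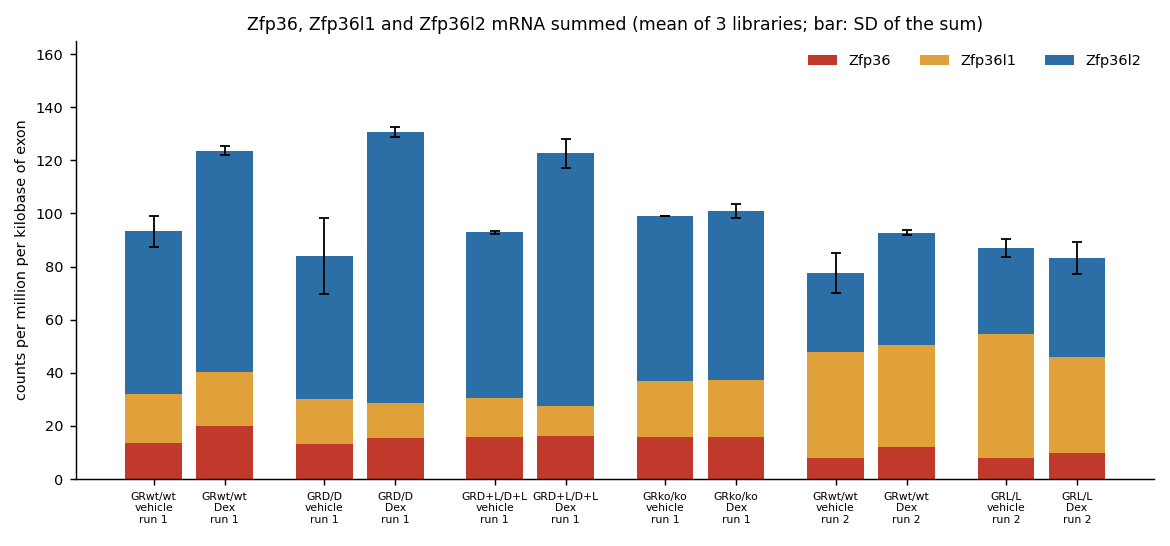
Summed level of Zfp36, Zfp36l1 and Zfp36l2 in CPM per kilobase of exon (stacked means of 3 libraries, with the SD of the sum). The sum stood at 122.6 to 130.7 in Dex-treated run 1 cells with a receptor, most of it Zfp36l2, and at 100.9 in Dex-treated GRko/ko.

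Zc3h12a, the endonuclease, was the lowest of the 6 and did not pass the test for Dex in any genotype. Its libraries ranged from 8.60 to 17.1 CPM. The responses ran from -0.27 ± 0.12 log2 in GRL/L (adjusted p = 0.125) to 0.27 ± 0.13 in GRD/D (adjusted p = 0.190). GRL/L libraries had 11.2, 12.1 and 12.3 CPM under vehicle and 10.9, 8.6 and 9.9 under Dex, which did not overlap, and this change passed when low genes were not filtered (adjusted p = 0.0397). 

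Elavl1, the stabiliser, fell slightly with Dex in run 1 wild type. Vehicle libraries had 100.6, 96.0 and 97.2 CPM and Dex libraries 81.7, 85.3 and 88.7, without overlap (0.87-fold, log2 -0.20 ± 0.05, adjusted p = 0.00459). The run 2 wild type had 92.1, 94.5 and 98.4 under vehicle and 96.0, 89.9 and 88.1 under Dex, which overlapped (log2 -0.06 ± 0.05, adjusted p = 0.396), and the runs differed by 0.14 ± 0.07 (adjusted p = 0.264). In GRD/D, Elavl1 fell by 0.17 log2 (SE 0.05, adjusted p = 0.0205), and in GRL/L by 0.14 (SE 0.05, adjusted p = 0.0350). The GRD/D call was lost without Dex replicate 2 or 3 or vehicle replicate 3 (adjusted p up to 0.159), without filtering (0.0715) and with the GC correction (0.203). The GRL/L call was lost without Dex replicate 2 or 3 or vehicle replicate 3 (up to 0.221) and under 5 of 9 other settings (up to 0.108). In GRD+L/D+L the value was -0.13 ± 0.05 (adjusted p = 0.186). GRko/ko libraries had 83.0, 82.3 and 84.1 under vehicle and 88.8, 84.5 and 88.1 under Dex (log2 0.07 ± 0.05, adjusted p = 0.935), a response above that of wild type by 0.27 ± 0.07 (adjusted p = 0.0120, and 0.0572 with the GC correction).

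Khsrp, the other decay-promoting protein, passed no Dex test. It stood at 98.6 to 108.1 CPM in vehicle and, without overlap, 109.3 to 117.5 in Dex-treated wild type of run 1 (log2 0.11 ± 0.08, adjusted p = 0.460), and its responses elsewhere lay between -0.15 and 0.07 log2. Vehicle GRD/D libraries spread from 81.7 to 124.9 CPM, wider than any other group of this gene. Without the highest of them, replicate 3, a GRD/D rise of 0.21 log2 passed (adjusted p = 0.0421).

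Read against all genes, the members were called at a higher share than the table in wild-type run 1, GRD/D, GRD+L/D+L and GRL/L, but 6 genes make a small count. The members were also chosen with earlier results of these data known, so a higher share cannot be read as a result about them. Dex called 3 of the 6 in run 1 wild type, where 13.9% of all 15489 genes were called, and 2 in run 2 wild type, where 31.6% were. It called 4 in GRD/D (11.9% of all genes), 2 in GRD+L/D+L (5.0%), 3 in GRL/L (19.1%) and 0 in GRko/ko (0.0%). In GRko/ko edgeR called no gene, with 859 genes at an unadjusted p under 0.05, while DESeq2 called 1, and edgeR without a filter on low counts called 110 of 32584. Member calls that passed only without filtering thus come from a setting that calls genes in receptor-null cells. The test of the difference from wild type called 2 members in GRD/D (3.29% of all genes), 2 in GRD+L/D+L (3.23%), 3 in GRko/ko (8.48%) and 0 in GRL/L (1.85%). Between GRD+L/D+L and GRD/D it called 0 (0.0775%), and between the wild-type runs 0 (7.09%). At the study's thresholds, which also ask for a log2 change of at least 1 in size, 0 members passed. All genes passed these at 2.01% and 4.49% in run 1 and run 2 wild type, 0.981% in GRD/D, 0.4% in GRD+L/D+L, 0.0% in GRko/ko and 2.56% in GRL/L.

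With vehicle alone, the levels of the members differed little between genotypes. Zfp36 was above run 1 wild type by 0.23 ± 0.08 log2 in GRD+L/D+L (1.18-fold, adjusted p = 0.0325) and by 0.24 ± 0.08 in GRko/ko (1.18-fold, adjusted p = 0.0158), in both cases without overlap of libraries. Leaving out 1 library lost the call in 4 of 6 cases for GRD+L/D+L (its replicates 1 and 3, GRwt/wt replicates 1 and 2, adjusted p up to 0.191) and in 3 of 6 for GRko/ko (GRko/ko replicate 2, GRwt/wt replicates 1 and 2, adjusted p up to 0.0771). Macrophage markers stood at opposite ends in these genotypes, at 32.2 to 40.8 CPM in vehicle GRD+L/D+L and 2960 to 3292 in vehicle GRko/ko, beside 197 to 349 in wild type. The part of macrophages in the Zfp36 levels was not tested. All 10 macrophage markers were detected in each group. Zfp36l1 differed from wild type by -0.33 ± 0.09 in GRD+L/D+L (adjusted p = 0.00437), a call lost without vehicle GRwt/wt replicate 3 (adjusted p = 0.0612). In GRko/ko its vehicle difference was 0.18 ± 0.09 (adjusted p = 0.0894).

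In GRko/ko, Elavl1 was 0.85-fold of wild type with vehicle (log2 -0.24 ± 0.05, adjusted p = 0.000184), the steadiest of these calls, kept in each refit. The 3 libraries had 82.3 to 84.1 CPM beside 96.0 to 100.6 in wild type. Zc3h12a was 1.25-fold of wild type (log2 0.32 ± 0.13, adjusted p = 0.0451), a call lost under 4 of 8 other settings (adjusted p up to 0.116) and without GRko/ko replicate 1 or GRwt/wt replicate 1 or 2 (up to 0.256). Beside both results, the cartilage markers summed to 180 to 524 CPM in vehicle GRko/ko and 19.4 to 21.0 in vehicle wild type, where Matn1 was at 0, and the part of other cell types in them was not tested. No member passed in GRD/D or GRL/L with vehicle, where the largest differences were -0.17 ± 0.08 for Zfp36l2 in GRD/D (adjusted p = 0.189) and 0.22 ± 0.08 for Zfp36l1 in GRL/L (adjusted p = 0.0573, and 0.0261 without GRwt/wt replicate 6). Without GRD/D replicate 3, both Zfp36l1 (log2 -0.30, adjusted p = 0.0145) and Zfp36l2 (log2 -0.29, adjusted p = 0.0114) were called lower in vehicle GRD/D.

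The vehicle counts, 0 members in GRD/D, 2 in GRD+L/D+L, 3 in GRko/ko and 0 in GRL/L, stand beside 9.55%, 29.9%, 45.7% and 11.3% of all genes, so that the shares of 2 and 3 of 6 are near the background. At the study's thresholds 0 members passed, against 2.12%, 5.57%, 14.2% and 1.31% of all genes.

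**Figure D4:**
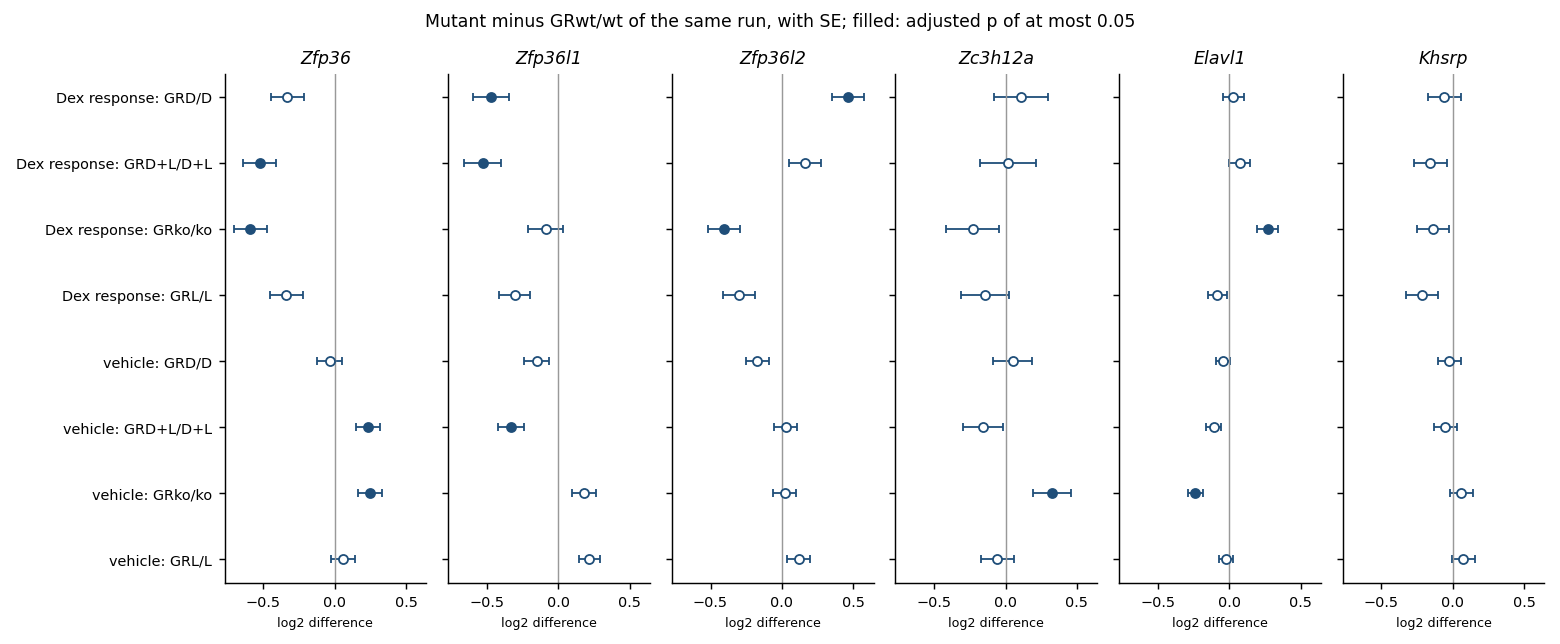
Difference of each mutant from the wild type of its own run on the log2 scale, with its SE, for the Dex response (upper 4 rows) and the vehicle level (lower 4 rows). Filled points passed an adjusted p of 0.05: in the Dex response of GRD/D, Zfp36l1 lies at -0.47 and Zfp36l2 at 0.46, and the GRL/L rows hold no filled point.

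Other genes of the decay pathway were followed in lists, without a set test. Dex called 13.9% of all genes in run 1 wild type and 31.6% in run 2, the shares beside which the list counts stand. Of 13 tested ARE-binding proteins 1 rose in run 1 wild type and 1 rose and 3 fell in run 2, of 10 decapping and 5′-3′ decay factors 0 and 3 fell, and of 14 exosome genes 0 and 2 rose. The list medians of these 3 groups lay between -0.08 and 0.10 log2 in both runs, beside -0.00 and -0.01 for all genes. Of 19 genes of the deadenylation machinery, which TTP recruits, 1 rose and 4 fell in run 1 and 2 rose and 3 fell in run 2. Cnot7, a catalytic deadenylase of CCR4-NOT, rose in both runs (log2 0.50 ± 0.06 and 0.43 ± 0.05, adjusted p = 3.69e-08 and 5.37e-08) and in GRL/L (0.23 ± 0.06, adjusted p = 0.00194). Its values in GRD/D, GRD+L/D+L and GRko/ko were -0.04, 0.07 and 0.09, each below wild type by a tested difference (adjusted p = 4.30e-05, 0.00111 and 0.000973). Btg1, an antiproliferative partner of the deadenylases, fell in both wild-type runs (log2 -0.56 and -0.23) and in GRD/D, GRD+L/D+L and GRL/L (-0.23, -0.26 and -0.40). Cnot6, another catalytic deadenylase, fell in the wild-type runs (log2 -0.17 and -0.22) and in GRL/L (-0.22, adjusted p = 0.00137). In GRD/D and GRD+L/D+L it stood at -0.11 and 0.05 (adjusted p = 0.227 and 0.801). Neither value differed from wild type by test (adjusted p = 0.867 and 0.171).

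Among 11 stem-loop decay factors, the group of Zc3h12a, 2 rose and 2 fell in run 1 and 2 rose and 5 fell in run 2. Of all genes, 13.9% and 31.6% were called in these runs. Zc3h12c, a paralogue of Zc3h12a, rose in both wild-type runs (log2 0.39 ± 0.10 and 0.56 ± 0.09, adjusted p = 0.00806 and 2.27e-06) and in GRL/L (0.40 ± 0.09, adjusted p = 0.000482). In GRD/D it stood at -0.27 ± 0.11 (adjusted p = 0.0993), a difference from wild type of -0.65 ± 0.15 (adjusted p = 0.00531). In GRD+L/D+L it stood at 0.06 ± 0.11 (adjusted p = 0.904), and the difference of -0.33 ± 0.15 did not pass (adjusted p = 0.349). In GRko/ko it stood at -0.19 ± 0.10 (adjusted p = 0.917), a difference of -0.57 ± 0.15 (adjusted p = 0.00790). Arid5a, whose product stabilises Il6 mRNA against Regnase-1, fell in the wild-type runs (log2 -0.58 and -0.51, adjusted p = 0.00611 and 0.000535) and in GRL/L (-0.51, adjusted p = 0.000400). In GRD/D and GRD+L/D+L its values of -0.39 and -0.38 missed the threshold (adjusted p = 0.0683 and 0.240). They did not differ from wild type by test (adjusted p = 0.835 and 0.824). Malt1, the protease that cleaves Regnase-1, fell in the wild-type runs (log2 -0.47 and -0.54, adjusted p = 0.00450 and 2.08e-05). It stood at -0.26, -0.18 and -0.10 in GRD/D, GRD+L/D+L and GRL/L (adjusted p = 0.148, 0.594 and 0.517). None of these differed from wild type by test (adjusted p = 0.736, 0.543 and 0.0861). N4bp1, another endonuclease with a related domain, rose by 0.15 and 0.38 log2 in the wild-type runs and by 0.24 in GRL/L (adjusted p = 8.54e-05). Its values of 0.11 in GRD/D and 0.14 in GRD+L/D+L missed the threshold (adjusted p = 0.152 and 0.0928). Neither differed from wild type by test (adjusted p = 0.912 and 0.990).

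Of the 15 kinases and phosphatases that act on TTP, 2 rose and 1 fell in run 1 wild type and 3 rose and 1 fell in run 2. The shares of all genes called were 13.9% and 31.6%. Dusp1 rose in both runs, by 0.34 ± 0.06 and 1.42 ± 0.07 log2 (adjusted p = 5.35e-05 and 4.59e-19), and the runs differed by 1.08 ± 0.09 (adjusted p = 4.36e-11). It rose by 0.83 ± 0.07 in GRL/L (adjusted p = 2.80e-12), a difference from its wild type of -0.59 ± 0.10 (adjusted p = 0.000136). In the cells with the D allele Dusp1 fell, with log2 changes of -0.40 ± 0.06 in GRD/D (adjusted p = 9.26e-06) and -0.31 ± 0.06 in GRD+L/D+L (adjusted p = 0.00110). Mapk14, the p38α kinase itself, rose by 0.13 and 0.17 log2 in the wild-type runs, by 0.15 in GRD/D (adjusted p = 0.0137) and by 0.23 in GRL/L (adjusted p = 7.04e-05).

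Among 28 transcripts known as targets of these decay factors, 24 passed the filter (all but Csf2, Il1a, Il10 and Dll4) and most of those called fell with Dex. In run 1 wild type 12 fell and 4 rose, and in run 2 17 fell and 4 rose, with list medians of -0.55 and -0.59 log2. GRL/L had 16 down and 3 up (median -0.64), GRD/D 12 down and 2 up (-0.28), GRD+L/D+L 8 down and 0 up (-0.17), and GRko/ko 0 of either (0.02). Medians over all genes lay between -0.01 and 0.01 log2 in these comparisons. Of all genes, Dex called 13.9% and 31.6% in the wild-type runs, 19.1% in GRL/L, 11.9% in GRD/D, 5.0% in GRD+L/D+L and 0.0% in GRko/ko. A few targets were poorly measured, with SEs of up to 1.67 log2 for Tnf, 1.47 for Il1b, 1.20 for Cxcl2 and 1.00 for Csf3. For Il1b in GRD+L/D+L no change could be measured (log2 0, SE 0). These values enter the medians. Many of these mRNAs are also repressed by the receptor at the level of transcription, and the counts do not separate synthesis from decay.

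Il6, a cytokine, fell in the wild-type runs (log2 -2.24 and -2.76), in GRD/D (-1.06), GRD+L/D+L (-0.88) and GRL/L (-2.27), and was at 0.14 ± 0.14 in GRko/ko (adjusted p = 0.953). Il11, a cytokine of the same family, fell in wild type (log2 -2.11 and -1.52), GRD/D (-1.37), GRD+L/D+L (-1.12) and GRL/L (-0.99). Ptgs2, the inducible prostaglandin synthase, fell in wild type (log2 -1.12 and -2.21), GRD/D (-0.93), GRD+L/D+L (-0.55) and GRL/L (-1.60). Ccl2, a monocyte chemokine, fell in wild type (log2 -1.14 and -2.59), GRD/D (-0.34) and GRL/L (-1.73), and stood at -0.36 ± 0.11 in GRD+L/D+L (adjusted p = 0.0674). The targets that rose in both wild-type runs were Fos (log2 0.75 and 0.73), Ccnd1 (0.55 and 0.63), Hif1a (0.40 and 0.42) and Myc (0.27 and 0.90). Of these, Fos, Ccnd1 and Hif1a carry the heptamer in the 3′ UTR. Each change described as a fall or a rise passed the adjusted threshold. For Il6 the response was weaker than in wild type by 1.18 ± 0.23 in GRD/D (adjusted p = 0.000898) and 1.37 ± 0.23 in GRD+L/D+L (adjusted p = 7.64e-05), while in GRL/L the difference was 0.49 ± 0.33 (adjusted p = 0.581).

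The heptamer shown above is in the 3′ UTR of 17 of the 24 tested targets (70.8%, against 28.5% of the tested genes with an annotated 3′ UTR). The list was made of known targets of factors that mostly bind such elements. A higher share thus follows from how the list was made and is not a result of these data. The medians of these 17 were -0.42 and -0.86 log2 in the wild-type runs and those of the 7 without it -0.76 and -0.48, so the order turned between runs. In GRD/D the medians were -0.38 and -0.20, and in GRL/L -0.74 and -0.44. These medians are descriptions of small lists, with no test, and the poorly measured Tnf, Il1b, Csf3 and Cxcl2 are among the targets with the heptamer.

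**Figure D5:**
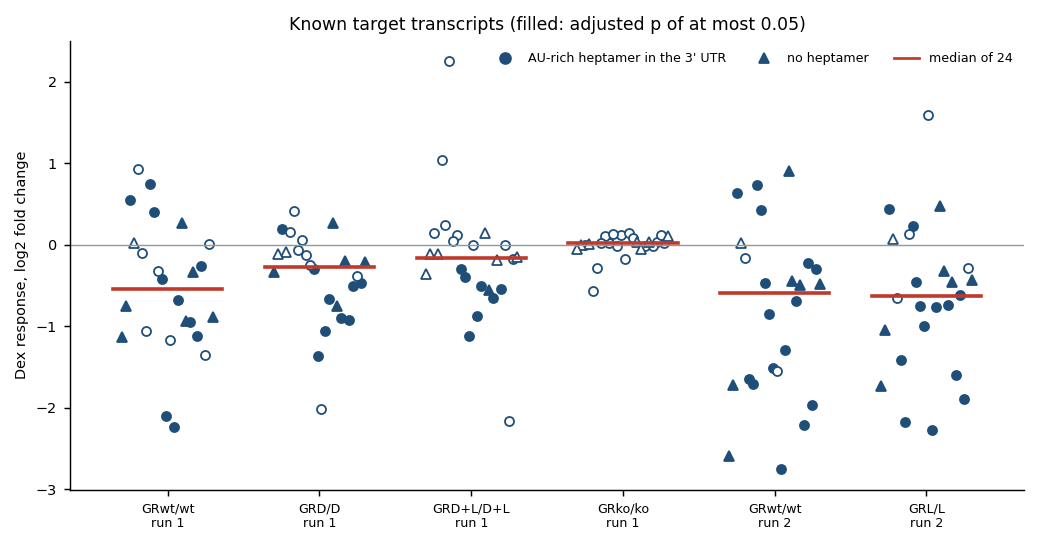
Dex response on the log2 scale of the 24 tested target transcripts in each genotype and run, with circles for those with the AU-rich heptamer in the 3′ UTR, triangles for those without, filled symbols for an adjusted p of at most 0.05 and a red line at the median. The medians lie at -0.55 and -0.59 in the wild-type runs, -0.64 in GRL/L, -0.28 in GRD/D, -0.17 in GRD+L/D+L and 0.02 in GRko/ko.

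The genes whose levels followed each member most closely over the 12 group means were taken from 11780 genes, with each run centred on its own mean, as a description that also reflects the genotype. Zfp36 was closest to Spsb1, Irs2 and Tgm2 (Pearson r of 0.96, 0.96 and 0.95), Zfp36l1 to Cd9, Zdbf2 and Sox9 (0.94, 0.93 and 0.92) and Zfp36l2 to Smad1, Tmem37 and Cdh6 (0.96 each). Zc3h12a was closest to Fzr1, Rce1 and Cxxc1 (0.89 each), Elavl1 to Trappc13, Pms1 and Fbxo32 (0.92, 0.90 and 0.89) and Khsrp to Syvn1, Dcakd and Cherp (0.93, 0.92 and 0.90). No gene was among the 3 nearest of more than 1 member.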

How the data were processed

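Whole-transcriptome libraries (TruSeq, NextSeq) of 36 MEF samples were measured. Per the methods and the submitters' processing notes, the authors aligned reads to mm10 with HISAT2 2.1.0, kept those with a single mapping position and obtained gene counts from featureCounts 2.0.0. The annotation and strand setting are not given in the sources used here. The deposited values are raw read counts per Ensembl gene, with no normalization, and 55141 of 55487 IDs matched a symbol.

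Counts were filtered with filterByExpr, TMM-normalized and fitted in edgeR 4.0.16 (quasi-likelihood F test, R 4.3.3) with a mean for each of the 12 groups. Contrasts were taken within a run, except between the wild-type runs. Genes were called at a Benjamini-Hochberg adjusted p of at most 0.05 over all 15489 genes tested. Standard errors were derived from each log2 fold change and its F value. CPM used TMM-scaled library sizes, and per-kilobase values the union of GENCODE vM21 exons. Replicates within a group are MEF cultures of different mice. Vehicle and Dex libraries of a genotype may share cultures, but no label ties them, so they were fitted as independent libraries. No 2 libraries of a group agreed within counting noise (median chi-square per gene 1.41 to 8.61 over 36 pairs).

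The members and lists were chosen with earlier results of these data known. All members were named, with up to 4 genes of each list called in both wild-type runs in the same direction, by mean size of change, and the 3 genes closest in pattern to each member among those with a mean count of at least 50. The fit was tested on simulated counts with known changes. These held no difference between runs and no shift common to a library, so they do not speak to such features of the real libraries. Alternatives were DESeq2 1.42.0, RLE scaling, other filters, the study's additive formula, each run alone, no GRko/ko, a replicate block, leaving out each library and, chosen after seeing the data, a GC correction.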

Additional observations from a re-analysis of the deposited data

Results flagged for a closer look

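These 7 results were picked out because the Dex response of a mutant differed from that of the wild type of the same run in a direct test of the difference (edgeR interaction contrast, adjusted over all genes). For Zfp36 the differences were -0.53 log2 in GRD+L/D+L (adjusted p = 0.00429) and -0.59 in GRko/ko (adjusted p = 0.000444). Both calls held in each of the 12 refits that left out 1 library. Zfp36l1 differed by -0.47 in GRD/D (adjusted p = 0.0250) and by -0.53 in GRD+L/D+L (adjusted p = 0.00993), the first kept in 5 and the second in 12 of 12 refits. Zfp36l2 differed by 0.46 in GRD/D (adjusted p = 0.0104) and by -0.41 in GRko/ko (adjusted p = 0.0159), each kept in 11 of 12. Elavl1 differed by 0.27 in GRko/ko (adjusted p = 0.0120), where its vehicle level was also lower than in wild type. In GRD/D, Zfp36l1 and Zfp36l2 thus differed from wild type in opposite directions within the same libraries.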

How the results depend on the processing

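No member changed direction in a called comparison under any setting tried. Counts of members called, with 1 library left out at a time, ranged from 2 to 3 for Dex in GRD/D, from 2 to 4 for Dex in GRL/L, from 0 to 3 for the difference of GRD/D from wild type, from 2 to 3 for that of GRko/ko, from 0 to 1 for that of GRL/L, and for vehicle levels from 0 to 2 in GRD/D, 1 to 3 in GRD+L/D+L, 1 to 4 in GRko/ko and 0 to 1 in GRL/L. The cause was not tested. Asking also for a log2 change of at least 1 left 0 members for Dex in both wild-type runs, GRD/D, GRD+L/D+L and GRL/L and for vehicle levels in GRD+L/D+L and GRko/ko. Without a filter on low counts, which also called genes for Dex in GRko/ko, 3 members passed for GRL/L minus wild type, 1 for GRD+L/D+L minus GRD/D, and 1 each for vehicle levels in GRD/D and GRL/L. Fitting each run alone, or the additive formula, also gave 1 for vehicle GRL/L. The GC correction, chosen after seeing the data, left 2 members for Dex in GRD/D. Under the additive formula, which pools the wild-type runs, Elavl1 passed for wild type (-0.13 log2, adjusted p = 0.00750).

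The replicate numbers did not pair the libraries: of 18 same-numbered vehicle and Dex pairs, 3 had a correlation of deviations over 0.1 (range -0.16 to 0.24), and 7 correlated best with their own number. With a replicate block, Elavl1 in GRL/L was at -0.14 log2 with an adjusted p of 0.0646, the only call of a member that the block changed. The median of all genes lay between -0.0128 and 0.0161 log2 under every setting. Zc3h12a, with 153 to 431 counts per library, had standard errors of 0.12 to 0.20 log2, which limits what could be seen for it.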
